A study of Bos taurus with 47 samples.

Results

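Adipose tissue of Holstein cattle was sampled from 4 animals and set against 14 other tissue labels, the members being the 4 libraries whose label reads Adipose, of 47 RNA sequencing libraries in all. These 4 libraries came from 2 males and 2 females, 1 library per animal. The males are named male A and male B below. The females are named the lactating and the dry cow, after the label of the mammary gland sampled from each. The other 43 libraries covered spleen, rumen, muscle, lung, liver, kidney, ileum, heart and frontal cortex of the same 4 animals, ovary and uterus of both cows, 1 lactating gland, 1 dry gland, and lymphocytes of a further male. The labels give no treatment, genotype or age, and they do not name the fat depot. Levels are given as deposited in FPKM, which counts sequenced fragments relative to transcript length and to the size of the library.

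Adipose tissue stores fat as triglyceride in adipocytes, releases it as fatty acids between meals and during lactation, and secretes hormones that act on appetite and insulin action. Beside adipocytes it holds vessels, fibroblasts, adipocyte precursors and immune cells. The deposited table lists 24616 Ensembl gene identifiers without gene names, and 0 of them could be matched to a name with the reference used here. The adipocyte and other cell type markers could therefore not be looked up, and the label Adipose was not checked against markers. Identifiers are described below by their rank, by their level and by the other tissues in which they were abundant, and no role is given to any of them.

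The 4 adipose libraries were alike in size and composition. Their FPKM summed to between 583798 and 673835, against 576130 to 964931 over all libraries. Between 12047 and 12353 identifiers reached 1 FPKM, and the 10 most abundant held 7.59% to 7.92% of the summed FPKM. Depth in fragments is unknown. Judged by the steps between low values, relative depth lay between 0.917 and 1.04 in adipose tissue and between 0.771 and 1.49 over all libraries. The adipose library of the lactating cow differed from the other adipose libraries in traces of other tissues. The 18 identifiers restricted to liver stood, as a median, at 0 ppm of their liver level in this animal's adipose library, against 275, 61.0 and 103 ppm in male A, male B and the dry cow. Such low traces were shared with 9 other libraries, 8 of the same cow and the lymphocyte library. They were not found in all libraries of this cow. Her muscle, rumen and lactating gland had liver traces of 445, 517 and 118 ppm. The labels name no batch, and the comparisons with uterus and between the sexes are also given without the libraries low in liver traces.

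The most abundant adipose identifiers fell into those shared with most tissues and those far above most tissues. The 15 with the highest mean ran from 2929 to 5650.3 FPKM and together held 9.79% ± 0.203 of the adipose FPKM (SD, n = 4). For 6 of the 15, adipose tissue was the highest of the 15 labels, and the same number were called higher in adipose tissue by the test described below. For 6 of the 15, uterus was the highest other label. The first by rank had 6792 and 7438 FPKM in the males and 3149 and 5222 FPKM in the cows. Its mean of 5650.3 ± 1910 FPKM (SD, n = 4) lay above 1802 FPKM in uterus and 1291 FPKM in ovary, and lymphocytes had 0.837 FPKM. The second had 7540, 6071, 2848 and 5575 FPKM in the animals in the same order, against a mean of 2080.1 FPKM in ovary. Both were lowest in the lactating cow.

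Other abundant identifiers had the opposite order among the animals. The fourth had 3894 and 3074 FPKM in the males and 7370.3 and 6441 FPKM in the cows, so the cows lay above the males. Ileum, the next label, had 1783 FPKM. The eighth likewise had 2157 and 1973 FPKM in the males and 4299 and 6035 FPKM in the cows, against 2028 FPKM in uterus. The third and the fifth belonged to the shared kind. The third averaged 5230.2 ± 1368 FPKM in adipose tissue (SD, n = 4), against 12224 FPKM in uterus, and the fifth 4457 ± 396 FPKM, against 11491 FPKM in lung. Over the 15, the males lay above the cows for 4 identifiers, the cows above the males for 5, and the animals overlapped for 6. Over all 16503 identifiers tested by sex, whether called or not, the males lay above the cows for 17.6% and the cows above the males for 33.3%.

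On the log2(FPKM + 1) scale, the adipose mean was compared with an average of the 14 other labels in which each label weighed the same. This was done for the 16634 identifiers that reached 1 FPKM in 2 or more libraries. An identifier was called at a limma adjusted p under 0.05 (Benjamini-Hochberg over all identifiers tested) together with a difference of at least 2 on that scale, or 4-fold. Adipose tissue was higher for 578 identifiers (3.47% of those tested) and lower for 121 (0.727%), while the median difference over all identifiers was -0.06. The 4 adipose libraries lay above all 43 others for 155 of the higher identifiers (0.932% of those tested) and below all 43 for 3 of the lower ones (0.018%). A difference of at least 3 was reached by 230 of the higher and 14 of the lower identifiers, and one of at least 5 by 31 and 0.

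The largest rise was that of ENSBTAG00000019813. It had 789 and 1126 FPKM in the males and 791 and 465 FPKM in the cows. Muscle followed with a mean of 22.9 FPKM and ileum with 17.6 FPKM, and liver was lowest with 0.0677 FPKM. All 4 adipose libraries lay above the highest other library, the ileum of male A with 69.3 FPKM. The difference was 8.70 ± 0.48 (SE) on the log2 scale (limma adjusted p = 1.96e-17).

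ENSBTAG00000007969 came second, with 780 and 1068 FPKM in the males and 525 and 667 FPKM in the cows. Its next labels were ileum with 20.03 FPKM and muscle with 18.4 FPKM, and uterus had 0.0300 FPKM. The ileum mean rested on male A with 77.0 FPKM, against 0.789, 0.132 and 2.17 FPKM in male B, the lactating and the dry cow. The difference of this identifier from the other labels was 8.63 ± 0.51 (SE), with a limma adjusted p of 1.26e-16. Both identifiers had 4 other labels at 1 FPKM or more. The third was among the most abundant of all, with 5125 and 4266 FPKM in the males and 3238 and 2648 FPKM in the cows, against 250 FPKM in the lactating gland and 228 FPKM in the dry gland. Its difference was 8.42 ± 0.69 (SE; limma adjusted p = 7.62e-13).

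The 20 largest rises among the 155 without overlap had adipose means of 82.1 to 5650.3 FPKM, 2.44 to 43.3 times the next label. Their differences ran from 5.22 to 8.70, and no limma adjusted p among them exceeded 8.52e-12. The next label was uterus for 7 of the 20, heart for 3 and muscle for 3. Frontal cortex followed for 2 and ileum for 2. The highest single library outside adipose tissue was the ileum of male A for 6 of the 20. Among the adipose libraries the males lay above the cows for 13, and the cows above the males for 6, against 17.6% and 33.3% of all identifiers tested. By the sex comparison described below, 1 of the 20 was called higher in the males and 1 higher in the cows (5% each), against 5.13% and 6.59% of all identifiers.

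**Figure D1:**
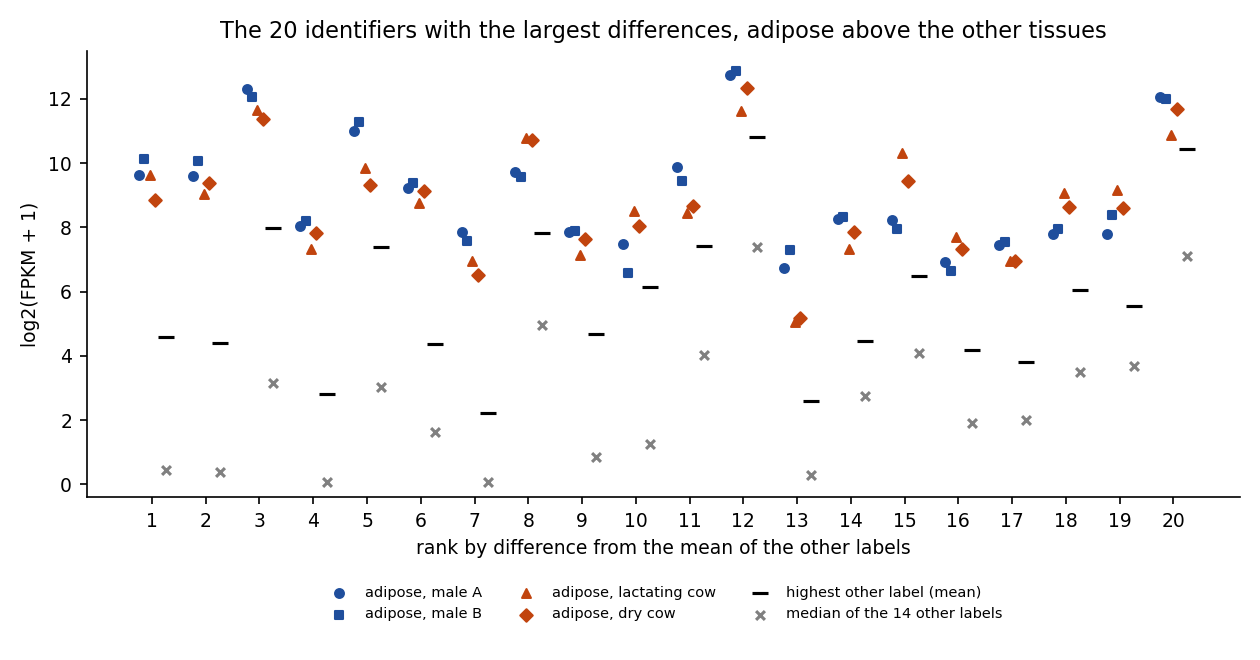
Levels in log2(FPKM + 1) of the 20 identifiers with the largest differences between adipose tissue and the mean of the other labels, among the 155 whose adipose libraries lay above all others, ranked from left to right. Coloured points are the 4 adipose libraries (blue males, orange cows), bars the mean of the highest other label and crosses the median of the 14 other labels; all 4 points of every identifier lie above the bar, and the adipose means run from 82.1 to 5650.3 FPKM.

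Where else these identifiers were expressed was read from the label means. Adipose tissue was the highest of all labels for 329 of the 578 higher identifiers (56.9%), against 3.27% of all identifiers tested. A single other label lay above it for 178, and more than 1 for 71. The highest other label was uterus for 129 of the 578 (22.3%), against 5.92% of all identifiers tested, lung for 68, ovary for 64 and the dry gland for 58. Of the 578, 229 had at least 100 FPKM in adipose tissue, and the median was 68.0 FPKM.

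A stricter description took identifiers that averaged 1 FPKM or more in adipose tissue and 4-fold or more above each of the other labels. There were 64 of them, and 59 were among the 578. They held 3.61% and 3.63% of the FPKM in the males and 3.07% and 2.99% in the cows, or 3.33% ± 0.345 (SD, n = 4). Of the 64, 31 had at least 100 FPKM and 16 were at least 10-fold above every other label, with a median of 6.66-fold and a highest value of 43.3-fold. The next label was uterus for 18, heart for 8, ileum for 8 and the dry gland for 7. The ileum means include the library of male A, which is described below. The nearest 2 inside the threshold stood at 4.07-fold and 4.18-fold, and the nearest 2 outside it at 3.95-fold and 3.88-fold.

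Some identifiers were enriched in adipose tissue together with 1 other label. Both labels then averaged 1 FPKM or more and stood 4-fold or more above each remaining label. The counts were 9 identifiers with frontal cortex, 6 with the lactating gland and 5 with liver. They depend on how many identifiers mark the other label. By the same limits, adipose tissue left aside, frontal cortex had 993 such identifiers, the lactating gland 41 and liver 251. The 6 shared with the lactating gland were abundant in both, with a median of 748 FPKM in adipose tissue and 497 FPKM in the gland, which is 1 library. The 9 shared with frontal cortex were mostly low, with a median of 2.55 FPKM in adipose tissue and 4.97 FPKM in cortex. For the 5 shared with liver, the median was 17.9 FPKM in adipose tissue and 30.7 FPKM in liver.

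Lower identifiers were mostly near absent from adipose tissue. Of the 121, 78 averaged under 1 FPKM there, and the median was 0.571 FPKM. Adipose tissue was the lowest of the 15 labels for 15 of them (12.4%), against 0.439% of all identifiers tested. Their highest label was the dry gland for 19 (15.7%, against 5.25% of all identifiers tested), spleen for 15 (12.4%, against 5.49%), rumen for 13 (10.7%, against 4.86%) and ileum for 14 (11.6%, against 7.42%). It was lymphocytes for 20 (16.5%, against 19.6%) and kidney for 12 (9.92%, against 8.86%). In bulk tissue, fewer cells of a type and less RNA per cell cannot be told apart.

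The largest fall was that of ENSBTAG00000030974, which had 1.35 and 0.786 FPKM in the males and 2.16 and 2.52 FPKM in the cows. Muscle had 1104 FPKM and rumen 865 FPKM, and even ovary, the lowest other label, had 4.21 FPKM. All 4 adipose libraries lay below every other library, the lowest of which had 2.65 FPKM, and the difference was -4.83 ± 0.16 (SE; limma adjusted p = 6.50e-24). ENSBTAG00000019798 had 0.125 and 0.125 FPKM in the males and 0.325 and 0.138 FPKM in the cows. It reached 1414 FPKM in ileum and 599 FPKM in the lactating gland, while rumen had 0.235 FPKM. The difference was -3.77 ± 0.24 (SE; limma adjusted p = 1.61e-15), and the adipose libraries overlapped with rumen libraries.

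The 15 largest falls were taken from 83 lower identifiers whose adipose libraries lay below every label with a mean of 1 FPKM or more. They averaged 0.0584 to 1.70 FPKM in adipose tissue, with differences of -4.83 to -2.81. Their adipose means were 0.0126% to 0.654% of the highest label. That label was kidney for 3 and spleen for 3. It was the dry gland, ileum and rumen for 2 each. The cows lay above the males for 7 of the 15 and the males above the cows for 0, all at these low levels, against 33.3% and 17.6% of all identifiers tested.

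**Figure D2:**
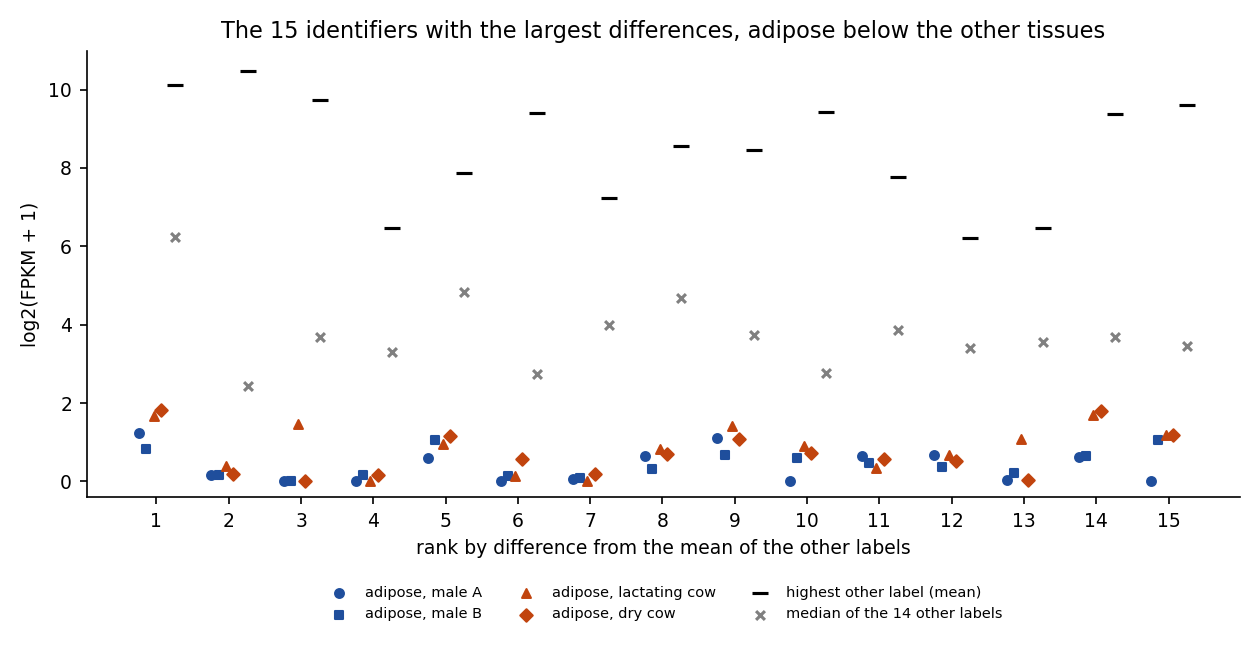
Levels in log2(FPKM + 1) of the 15 identifiers with the largest differences below the mean of the other labels among the 83 that qualified, ranked from left to right. Coloured points are the 4 adipose libraries (blue males, orange cows), bars the highest other label and crosses the median of the 14 other labels; adipose means lie between 0.0584 and 1.70 FPKM.

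These counts were moved by the choices made. A pseudocount of 0.1 FPKM in place of 1 gave 1015 higher and 564 lower identifiers, and only the 10 tissues of all 4 animals gave 226 lower ones. All of the 578 and 121 were among the calls with the smaller pseudocount.

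Identifiers restricted to adipose tissue were followed into the other libraries. The 10 that averaged 100 FPKM or more in adipose tissue and lay 10-fold or more above each other label were used, which is a description only, since their adipose level chose them. In each library, the median over the 10 was expressed as a percent of the adipose mean. It lay between 1.85% and 3.24% in the 4 muscle libraries and between 0.0151% and 0.480% in every other library outside adipose tissue but 1. The exception was the ileum of male A with 9.86%, against 0.105%, 0.0226% and 0.170% in the ileum of male B and of the lactating and the dry cow. The identifier with the largest rise, for example, had 69.3 FPKM in the ileum of male A and 0.781, 0.0965 and 0.425 FPKM in the other ileum libraries. Without the ileum library of male A the comparison gave 579 higher and 121 lower identifiers, of which 577 and 117 were among the 578 and 121.

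**Figure D3:**
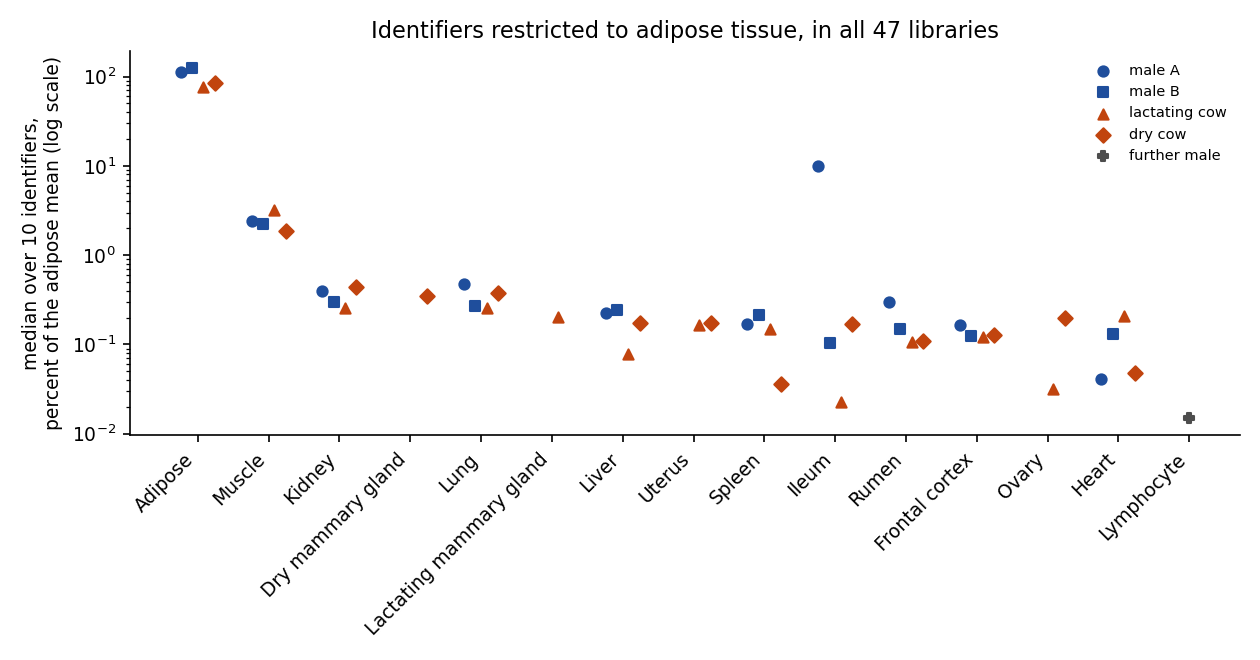
Median level of the 10 identifiers restricted to adipose tissue, as a percent of the mean of the adipose libraries (log scale), in all 47 libraries by tissue and animal. Muscle lies between 1.85% and 3.24%, the ileum of male A at 9.86%, and the other libraries outside adipose tissue between 0.0151% and 0.480%.

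Groups of identifiers that mark another tissue were also read in adipose tissue. A group held identifiers that averaged 1 FPKM or more in its tissue and 4-fold or more above each label other than adipose tissue, so adipose values took no part in choosing it, although the marked tissue is 1 of the 14 in the comparison. Against 3.47% higher and 0.727% lower among all identifiers, adipose tissue was higher for 8 of 39 uterus identifiers (20.5%), 7 of 35 of the lactating gland (20%), 5 of 41 of the dry gland (12.2%) and 7 of 72 of ovary (9.72%). It was lower for 9 of 109 spleen identifiers (8.26%), for 5 of 41 of the dry gland (12.2%) and for 1 of 990 of frontal cortex (0.101%). A member is high in 1 of the 14 averaged labels and at least 4-fold lower in the rest. This limits how far their average can exceed adipose tissue, so the shares called lower are set in part by the choice of members. The same choice keeps that average well below the marked tissue, which bears on the shares called higher as well. Neither kind of share has a like baseline in the shares over all identifiers. The median difference was 0.08 for the uterus group and negative for the other 13, from -0.61 for the lactating gland to -0.17 for spleen, against -0.06 over all identifiers. A high level in the marked tissue lowers this difference by construction, so its sign and size are no measure of adipose tissue alone. These groups were not tested, and they were chosen after the identifiers were seen.

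The lactating gland group was spread unevenly over the animals. Its summed FPKM in adipose tissue was 7534 in male A and 10819 in male B, and 2599 and 2779 in the lactating and the dry cow, so both males lay above both cows by this sum. Its mean log2(FPKM + 1) was 1.97 and 1.97 in the males and 1.72 and 2.30 in the lactating and the dry cow, so by this measure the dry cow was highest, and the median male minus female difference was 0. The spleen group summed to 1648 and 1246 FPKM in the males and 2330 and 1721 FPKM in the cows, and its mean log2(FPKM + 1) was 1.57 and 1.67 in the males and 2.06 and 1.96 in the cows. The cows lay above the males by both measures. The liver group summed to 3284 and 3260 FPKM in the males and 4601 and 4637 FPKM in the cows. Its mean log2(FPKM + 1) was 1.15 and 1.04 in the males and 1.02 and 1.07 in the cows, which overlapped, and 10 of its 250 members were called higher in the males and 9 higher in the cows.

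By its whole profile, adipose tissue was most like uterus. The Spearman correlation of label means across 16634 identifiers was 0.914 with uterus, 0.901 with ovary, 0.878 with the dry gland, 0.868 with heart, 0.866 with lung and 0.843 with muscle. It was lowest with lymphocytes (0.687) and frontal cortex (0.701). These are descriptions across identifiers, which are not replicates. The labels differ in how many libraries their means hold, from 4 to 1.

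Against uterus, the muscular organ that carries the calf, adipose tissue was higher for 370 identifiers (2.22% of those tested) and lower for 338 (2.03%) at the same thresholds. The identifier with the largest rise was the second of the comparison with all tissues, at 0 and 0.0601 FPKM in uterus. The next had 1681 and 1128 FPKM in the males and 371 and 157 FPKM in the cows, against 0.191 and 0.0344 FPKM in uterus. All 4 adipose libraries lay far above both uterus libraries, and the difference was 9.02 ± 1.11 (SE; limma adjusted p = 4.47e-08). Its SD over the adipose libraries was 1.55 on the log2 scale. The 5 largest rises were all among the 578 and ran from 8.35 to 9.48.

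On the uterus side, the leading identifier had 5.17 and 6.03 FPKM in the males' and 5.02 and 3.98 FPKM in the cows' adipose tissue, against 1789 and 993 FPKM in the uterus of the lactating and the dry cow. The difference was -7.80 ± 0.68 (SE; limma adjusted p = 2.00e-11). The fifth was listed at 0 in all 4 adipose libraries and had 168 and 44.3 FPKM in uterus. The 5 largest falls ran from -7.80 to -6.45. Uterus had 2 libraries, both from the cows, so its difference from adipose tissue includes 2 male animals on 1 side only. With each library rescaled to the same sum, the split was 491 higher and 277 lower, or 63.9% higher in place of 52.3%, and a pseudocount of 0.1 FPKM gave 650 and 902. Without the libraries low in liver traces there were 343 higher and 412 lower (45.4% higher), of which 291 and 275 were among the 370 and 338. With the uterus of the lactating cow alone left out there were 308 and 397, and with that of the dry cow left out 454 and 370.

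Against muscle, the other tissue of the carcass, adipose tissue was higher for 2389 identifiers (14.4% of those tested) and lower for 499 (3%). The leading rise had 166 and 133 FPKM in the adipose tissue of the males and 359 and 249 FPKM in that of the cows, against 3.46, 0.695, 1.31 and 0.696 FPKM in the muscle of the animals in the same order. The difference was 6.50 ± 0.64 (SE; limma adjusted p = 2.43e-11). The fourth rise was more even, with 304 and 269 FPKM in the males and 344 and 437 FPKM in the cows, against 3.12 to 7.72 FPKM in muscle. The falls were larger. The 5 largest ran from -12.57 to -11.11, and the 5 largest rises from 5.82 to 6.50.

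The identifier with the largest fall had 25.9 and 34.6 FPKM in the adipose tissue of the males and 0.448 and 13.0 FPKM in that of the cows, against 63412 to 79232 FPKM in muscle. The difference was -12.57 ± 0.80 (SE; limma adjusted p = 3.06e-16). Its level in adipose tissue was highest in male B and lowest in the lactating cow. The 9 identifiers restricted to muscle had the same order in adipose tissue, at 397 and 869 ppm of their muscle level in the males and 33.4 and 266 ppm in the cows, and 2 of the 5 largest falls belong to those 9. The part of these traces in the adipose values was not tested.

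The number of identifiers on each side of the muscle comparison followed the scaling. The median difference over all identifiers was 0.65 in favour of adipose tissue. Quantile normalization brought it to 0.02, a shift of -0.62, and gave 803 higher and 772 lower identifiers, or 51.0% higher in place of 82.7%. Relative to that shift there were 1709 higher and 511 lower. All 803 were among the 2389, and all 499 were among the 772.

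The 4 adipose libraries differed more from each other than those of most tissues. Among identifiers with a mean of at least 10 FPKM in the tissue, the SD of log2(FPKM + 1) over the 4 animals had a median of 0.243 in adipose tissue. This was the second highest of the 10 tissues with 4 animals, below ileum with 0.312 and above lung with 0.223, and frontal cortex was lowest with 0.159. An SD of at least 1 was reached by 130 of 6516 adipose identifiers, by 485 of 7940 in ileum and by 20 to 104 in the other 8 tissues. Those 8 had between 4049 (muscle) and 7619 (lung) identifiers at that mean. No test was made of these differences between tissues.

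The adipose libraries paired by sex. The Spearman correlation across identifiers was 0.980 between the males and 0.981 between the cows, and 0.965 to 0.969 between a male and a cow. At least 2-fold differences in FPKM + 1 numbered 446 between the males and 347 between the cows, and 1079 to 1343 between a male and a cow. Of the 130 identifiers with an SD of at least 1, 61 were above their mean in both males only and 33 in both cows only. Over all 16503 identifiers tested by sex, the males lay above the cows for 17.6% and the cows above the males for 33.3%. That condition is looser, since it does not ask on which side of the mean a library lies. The 130 were chosen for their spread among these same 4 libraries. The other 36 of the 130 were divided over 11 patterns, of which the commonest was male A with the dry cow (8 identifiers).

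**Figure D4:**
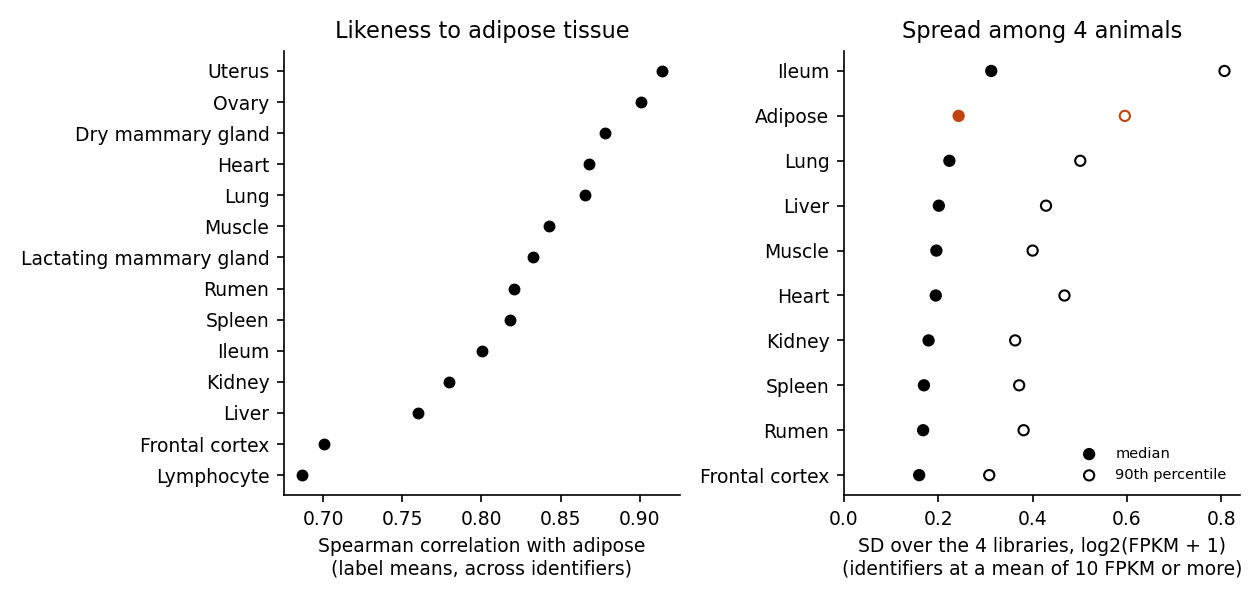
Left, Spearman correlation of the adipose mean with the mean of each other label across 16634 identifiers, from 0.914 (uterus) to 0.687 (lymphocytes). Right, SD of log2(FPKM + 1) over 4 animals in each of 10 tissues, as the median (filled) and 90th percentile (open) over identifiers with a mean of at least 10 FPKM; adipose tissue (orange) has a median of 0.243, second to ileum with 0.312.

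The 15 identifiers with the largest SDs, between 2.01 and 3.67, showed both sex patterns and single animals. The first had 140.5 and 110.3 FPKM in the males and 0.1996 and 1.05 FPKM in the cows. The second was high in 1 animal of each sex, with 78.4 FPKM in male A and 54.1 FPKM in the dry cow, against 0.330 FPKM in male B and 0.865 FPKM in the lactating cow. The third was listed at 0 in 3 libraries and had 55.6 FPKM in the dry cow. The fourth had 38.1 FPKM in male A and 33.9 FPKM in the lactating cow, against 0.0938 and 0.289 FPKM in male B and the dry cow. The tenth stood at 184 FPKM in male B and between 5.60 and 12.9 FPKM in the others, and its highest other label was the dry gland with 6764 FPKM.

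Males and cows were compared within adipose tissue in a limma fit over the 40 libraries of the 10 tissues of all 4 animals, with no minimum difference and an adjusted p under 0.05. Of 16503 identifiers, 846 were higher in the males (5.13%) and 1088 lower in the males (6.59%), that is, higher in the cows. The animals did not overlap for 843 (5.11%) and 1087 (6.59%) of them. A difference of at least 2-fold was reached by 397 and 313, and the median size was 0.97 and 0.77 on the log2 scale. The fit pooled the spread over the 10 tissues, most of which varied less over the 4 animals than adipose tissue. The 4 adipose libraries alone gave 328 higher and 317 lower in the males among 12397 identifiers. Sex cannot be told apart from lactation history or any other difference between these 4 animals.

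The leading identifiers by sex were taken from those called whose libraries did not overlap between the sexes. The largest difference with the males higher was that of the identifier with the largest SD. Its male minus female difference was 6.32 ± 0.95 (SE; limma adjusted p = 7.31e-05). The fourth had 236 and 115 FPKM in the males and 12.7 and 10.02 FPKM in the cows, a difference of 3.76 ± 0.37 (SE; limma adjusted p = 3.25e-07). The fifth, at 241 and 211 FPKM in the males and 29.9 and 14.4 FPKM in the cows, was the most abundant of the leading 10. The second, the third and the sixth had rumen as their highest other label, where the third reached 17646 FPKM. The rumen traces of the 4 adipose libraries were 104 and 82.0 ppm in the males and 0 and 333 ppm in the cows. Their part in these values was not tested.

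With the cows higher, the leading identifier had 4.92 and 7.42 FPKM in the males and 148 and 129 FPKM in the cows. The difference was -4.30 ± 0.25 (SE; limma adjusted p = 5.37e-11), and the adipose cows lay above uterus, its highest other label with 42.1 FPKM. The second had 49.4 and 55.0 FPKM in the males and 730.0 and 397 FPKM in the cows, a difference of -3.34 ± 0.44 (SE; limma adjusted p = 1.41e-05), with kidney at 8320 FPKM. Spleen was the highest other label for 6 of the leading 10. One of them had 2.27 and 5.46 FPKM in the males and 60.001 and 34.6 FPKM in the cows, against 14653 FPKM in spleen. The eighth and the ninth were listed at 0 in both males.

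**Figure D5:**
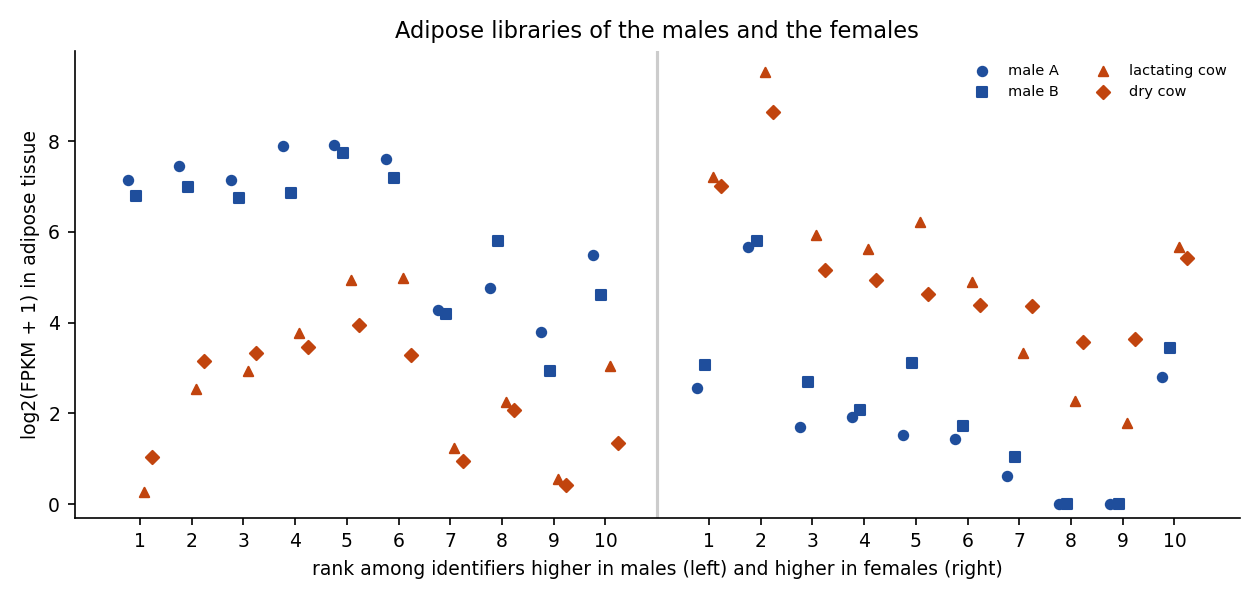
Levels in log2(FPKM + 1) in the 4 adipose libraries of the 10 identifiers with the largest differences in favour of the males (left) and of the cows (right), ranked by difference. Blue points are males and orange points cows, which do not overlap for any of the 20, because only called identifiers without overlap were ranked. The male minus female differences run from 6.32 to 2.85 on the left and from -4.30 to -2.43 on the right.

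Called identifiers were unevenly spread over the groups that mark other tissues. Of the 578 identifiers higher in adipose tissue, 90 were higher in the males (15.6%) and 119 higher in the cows (20.6%), against 5.13% and 6.59% of all identifiers tested. The 578 were chosen for a high adipose level, with a median of 68.0 FPKM, against 5.92 FPKM over the 16634 identifiers tested against the other tissues. The log2(FPKM + 1) scale understates differences of low identifiers, so these shares do not compare identifiers of like level. The lactating gland group had 8 of 32 higher in the males (25.0%) and 2 higher in the cows. The ovary group had 10 of 59 (16.9%) and the heart group 13 of 87 (14.9%) higher in the males. The spleen group had 0 of 109 higher in the males and 10 higher in the cows (9.17%). By the highest other label, ileum took 18.1%, heart 17.1% and kidney 15.6% of the identifiers higher in males, against 7.48%, 5.39% and 8.91% of those tested. Uterus took 14.98% of the identifiers higher in cows, against 5.80%. The uterus, ovary and mammary libraries came only from the cows. The shares of these labels cannot be told apart from differences between the animals that are common to several tissues. These shares were not tested.

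The sex difference in adipose tissue was then set against the mean sex difference of the other 9 tissues. It lay above that mean for 659 identifiers (3.99%) and below it for 1385 (8.39%) at a limma adjusted p under 0.05. This contrast contains the adipose sex difference itself, so its calls are not independent of those within adipose tissue.

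The counts by sex fell whichever adipose library was left out. Each such step leaves that sex without a replicate adipose library, so whether the calls depended on a particular animal was not tested. Leaving out the adipose library of male A, male B, the lactating cow or the dry cow gave 469, 723, 607 and 529 identifiers higher in males and 475, 644, 604 and 541 higher in cows. Against the other tissues, the same steps gave 328, 563, 539 and 331 above and 526, 817, 806 and 471 below. Without the libraries low in liver traces, 596 identifiers were higher in males and 645 in cows, and 457 lay above and 695 below the other tissues. The balance also turned with the scaling. The males were higher for 43.7% of the called identifiers as deposited, for 57.9% with libraries rescaled to the same sum (1012 and 735) and for 56.4% with quantile normalization (1057 and 817). For the contrast with the other tissues, 32.2% lay above as deposited and 57.8% with quantile normalization (879 and 642), which moved the median of all identifiers by 0.14.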

How the data were processed

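The authors deposited 1 table of FPKM values for 24616 Ensembl identifiers, made, per the submitters' processing notes, with STAR, Trimmomatic 0.39 and Cufflinks on the assembly UMD3.1. Order, settings and annotation are not given in the sources used here. FPKM is relative to each library's total, and read counts and depth are not given, so no counting interval or floor was computed. Of 51 columns, 47 were matched to samples by name. The other 4 were not used. Samples were grouped by their tissue and sex labels. RNA extraction and library preparation, per the labels' protocols, followed 1 scheme for all samples.

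Values were taken as log2(FPKM + 1), which understates the change of low identifiers. Identifiers that reached 1 FPKM in 2 or more libraries entered limma 3.58.1 fits in R 4.3.3 (intensity trend, Benjamini-Hochberg adjustment, threshold 0.05), with 1 mean per label over 47 libraries, or per tissue and sex over 40. The fit was tested on simulated data. Tables and plots were made with matplotlib 3.10.9, pandas 2.3.3 and numpy 2.4.6 in Python 3.11.15.

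Leading identifiers were set by ranks: the highest mean, the largest called differences (without overlap of libraries for the rises and the sexes, and for the falls below every label with a mean of 1 FPKM or more), and the largest SDs at 10 FPKM or more. Marker and pathway lists fixed by gene symbol could not be applied, because the identifiers are not paired with symbols (0 matches to the reference used, assembly ARS-UCD2.0). Of the identifiers, at most 2 per direction are printed. Groups by tissue replaced these lists after the identifiers were seen. The comparisons, members and lists were chosen with earlier results of these data known. Libraries of 1 animal share its number in the labels. Their deviations from the tissue means correlated with a median of 0.164 over 36 pairs of an adipose library and another library of its animal (-0.00718 to 0.316). Each library is 1 animal, and p-values measure the spread between these animals, pooled over all labels in the fit.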

Additional observations from a re-analysis of the deposited data

Results flagged for a closer look

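In 9 of the 94 sets of 4 libraries examined, 1 library stood apart from the other 3 by Dixon's ratio at the 95% level. Chance flags about 1 in 20 sets that were not selected. These sets came largely from ranked lists, among them the largest SDs over the same libraries and falls near 0. The 9 can therefore not be set against that rate. The ileum of male A held the 10 adipose-restricted identifiers at 9.86% of their adipose level. The lactating cow stood apart for the ninth most abundant identifier, at 5032 FPKM, and for 3 of the largest falls, at 0.325, 1.76 and 1.13 FPKM. Male A was listed at 0 for another of them. Among the identifiers with the largest SDs, the dry cow stood apart with 55.6 FPKM and male B with 184 FPKM. For the fourth fall against uterus, male B stood apart with 14.3 FPKM.

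The sex difference of each of the 20 leading identifiers differed from the mean of the other 9 tissues by the limma contrast. These 20 were chosen for their sex difference in adipose tissue. For those higher in males, the adipose difference exceeded that mean, in order of rank, by 5.29, 3.92, 3.42, 3.56, 3.11, 2.99, 2.02, 2.94, 2.08 and 2.64 on the log2 scale. For those higher in cows it stood at -3.62, -2.76, -2.97, -3.19, -2.93, -2.97, -2.82, -2.67, -2.38 and -1.89.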

How the results depend on the processing

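Without the libraries low in traces of liver, 596 identifiers were higher in males and 645 in cows, and 457 lay above and 695 below the other tissues. Over the adipose libraries left out singly, these ranges were 469 to 723, 475 to 644, 328 to 563 and 471 to 817. Without the ileum library of male A they were 882, 1107, 682 and 1322 (also chosen after seeing the data). Leaving out all libraries of the lactating cow gave 583 and 567, and 423 and 524; leaving out those of the dry cow gave 533 and 566, and 295 and 443 (both settings chosen after seeing the data). The 4 adipose libraries alone gave 328 and 317. Quantile normalization gave 642 below the other tissues.

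Against the other tissues, a pseudocount of 0.1 FPKM gave 1015 higher and 564 lower identifiers, a minimum difference of 1 gave 1661 and 943, and one of 3 gave 230 and 14. Only the 10 tissues of all 4 animals gave 226 lower ones. Rescaling to the same sum shifted the median by 0.16 and gave 727 and 102, or 600 and 150 relative to that shift. The smaller pseudocount gave 650 and 902 against uterus and 4396 higher against muscle, where quantile normalization gave 803 and 772. Pseudocount and scaling act by construction, and the cause of the other changes was not tested.

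With the animal as a replicate block and without the lymphocyte library there were 498 higher and 131 lower identifiers (515 and 134 without the block), 345 and 347 against uterus, 2389 and 499 against muscle, and 735 and 1590 for the sex contrast with other tissues. The block moved no count by over 1.5 times. No block can be fitted for sex, since each animal has 1 sex.

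The leading identifiers kept direction and call under every alternative against other tissues, uterus and muscle, the changed minimum differences left aside. A minimum of 3 takes the call from the smaller of the 15 leading falls, which reach down to -2.81. By sex, 10 of 300 values lost the call, and 27 of 300 in the contrast with other tissues, and none turned. Levels below the traces of other tissues, and zeros, limit what the falls can show, as depth is unknown.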
